A study of Mus musculus with 22 samples.

Results

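Nuclear-encoded genes of oxidative phosphorylation were followed across the cell types of the mouse hypothalamus after fibroblast growth factor 1 (FGF1) was injected once into a brain ventricle (icv). Members were chosen by symbol alone, without use of their values: Nduf, Sdha to Sdhd (with their assembly factors Sdhaf), Uqcr, Cox4i, Cox5 to Cox8 and Atp5. The rule found 92 of 20668 genes of the single-nucleus count table and 95 of 16304 genes of the whole-cell count table, and 92 were in both. In whole cells they comprised 38 complex I subunits, 7 complex I assembly factors (Ndufaf), 4 complex II subunits, 4 complex II assembly factors, 8 complex III genes, 17 complex IV genes and 17 Atp5 genes. The Atp5 genes, Atp5s and Atp5sl among them, were set under complex V, the ATP synthase. All roles were given by symbol alone, so a role does not show that the product is a subunit. Cox4i1, Cox8b and Ndufa13 were analysed in whole cells only.

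All mice were 11-week-old male leptin-deficient ob/ob animals, so both arms were obese and carried the same mutation. FGF1 mice received 3 µg icv, and vehicle mice received icv PBS and were pair-fed to the intake of the FGF1 mice. Nuclei came from 3 FGF1 and 3 vehicle mice on Day 1 and 2 FGF1 and 2 vehicle mice on Day 5, and whole cells from 6 FGF1 and 6 vehicle mice on Day 5. Each library held 1 mouse, the nuclei and whole-cell cohorts ate different chow, and neurons had been taken out of the whole-cell table by the authors.

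The respiratory chain sits in the inner mitochondrial membrane. Complexes I and II feed electrons into the chain, complexes III and IV pass them on to oxygen, and the proton gradient built on the way drives ATP synthesis at complex V. Most subunits are encoded in the nucleus, and the 13 protein genes of mitochondrial DNA supply the rest. Several nuclear genes have tissue-restricted twins, such as Cox4i2 beside Cox4i1. Astrocytes are generally held to rely on glycolysis more than neurons do, and tanycytes are the radial glia-like cells that line the floor of the third ventricle.

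Libraries held between 591 and 7926 barcodes and 2652897 to 16345981 counted molecules (unique molecular identifiers, UMIs), which sets the precision of each mouse's value. The nuclei table held 81334059 UMIs over 24965 barcodes and whole cells gave 84291895 UMIs over 54890 barcodes. Libraries shared 318 barcode sequences in nuclei and 1791 in whole cells. Members made up 1.04% of UMIs in nuclei and 3.26% in whole cells. The nuclear types carry the authors' names, and the Astro nuclei passed all 6 astrocyte markers. Whole-cell clusters were named here from markers: clusters 0, 7 and 10 were tanycyte-like, 1 and 4 astrocyte-like, 2, 11 and 12 oligodendrocyte-like, 5 and 17 OPC-like (oligodendrocyte precursor), 3 endothelial-like and 8 microglia-like. Ndufa4l2 is both a member and 1 of the mural markers used for those names. Vcan is in both the tanycyte list and the list of committed oligodendrocyte precursors, so sums over those lists share a gene.

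Promoter sequences are shown because the symbol rule used none of them. RefSeq promoters on GRCm38.p6, from 250 bases before to 50 after the annotated start, were found for 77 of 95 members. The core of the NRF1 site (nuclear respiratory factor 1, a known activator of these genes), spelled CGCATGCG, was in 11 of 77 members, or 14.3%, against 2.07% of promoters of all 27025 genes. The ETS-family site CCGGAAG was in 26.0% against 9.93%, the YY1 site AAGATGGC in 11.7% against 3.19%, and the ERR site TCAAGGTCA in 2.60% against 0.466%, all read on both strands. The 27025 genes were not limited to genes expressed here, so these shares give no base for expressed genes. Below are the promoter of Cox6a1 (chr5:115348909-115349208, minus strand), which fell in several fits, that of Atp5l (chr9:44920693-44920992, minus strand), which fell in astrocyte-like cells, and that of Ndufc2 (chr7:97399753-97400052, plus strand), which rose in tanycyte-like cells. Capitals mark matches to the NRF1 core or the ETS site.
Cox6a1: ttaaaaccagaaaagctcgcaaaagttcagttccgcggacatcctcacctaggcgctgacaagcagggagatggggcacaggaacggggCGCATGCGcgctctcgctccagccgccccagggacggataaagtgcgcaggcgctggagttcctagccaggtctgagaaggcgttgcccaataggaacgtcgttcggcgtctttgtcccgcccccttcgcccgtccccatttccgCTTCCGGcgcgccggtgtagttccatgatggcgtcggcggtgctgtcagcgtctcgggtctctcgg
Atp5l: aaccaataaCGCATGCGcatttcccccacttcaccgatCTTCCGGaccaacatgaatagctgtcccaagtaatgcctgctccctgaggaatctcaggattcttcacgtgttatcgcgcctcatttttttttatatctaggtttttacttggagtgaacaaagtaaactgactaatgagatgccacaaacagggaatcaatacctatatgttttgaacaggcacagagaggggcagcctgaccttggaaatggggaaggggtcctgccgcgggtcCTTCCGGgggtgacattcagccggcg
Ndufc2: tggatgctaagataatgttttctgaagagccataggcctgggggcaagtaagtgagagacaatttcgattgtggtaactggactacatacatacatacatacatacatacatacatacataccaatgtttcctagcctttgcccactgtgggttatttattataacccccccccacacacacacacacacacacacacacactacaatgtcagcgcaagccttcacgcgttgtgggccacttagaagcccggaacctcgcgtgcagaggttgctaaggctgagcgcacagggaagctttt
Cox6a1 and Atp5l held both an NRF1 core and an ETS site, and Ndufc2 held none of the 4 motifs in this window. The 3 do not stand for members that fell or rose. Of 39 members called lower in astrocyte-like cells, 8 held the NRF1 core and 8 an ETS site. Ndufa5, Ndufv3, Ndufb4, Cox7a2, Cox7b and Cox7c, lower there too, held none of the 4. These are letter matches only.

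The level of the members in vehicle whole cells gives the base for the comparisons. Complex I genes together took 1.198 ± 0.0788% of UMIs (mean ± SD, n = 6 mice), complex IV 1.01 ± 0.114%, complex V 0.694 ± 0.0434%, complex III 0.360 ± 0.0326% and complex II 0.0498 ± 0.0026%. The assembly factors were rare, at 0.0238 ± 0.000929% for complex I and 0.0140 ± 0.00114% for complex II. These are 3-prime tag counts, given as CPM, the UMIs of a gene scaled to a common library total, with no division by length, so ranks between genes are ranks of tag counts only.

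Within complex IV the highest members were Cox4i1 at 1827 ± 282 CPM and Cox8a at 1656 ± 395 CPM, both subunits of cytochrome c oxidase. Uqcrh (848 ± 104 CPM) and Uqcr11 (774 ± 68.6 CPM) led complex III, and Atp5l, the g subunit of ATP synthase (818 ± 59.8 CPM), and Atp5h, its d subunit (696 ± 103 CPM), led complex V. By symbol Ndufa4 led complex I at 784 ± 84.3 CPM, although its product is now placed in complex IV, and Ndufa13 followed at 726 ± 55.0 CPM. Sdha, the flavoprotein of succinate dehydrogenase, had 186 ± 13.2 CPM and Sdhb, its iron-sulfur subunit, 173 ± 21.1 CPM. In each complex the first and second ranked genes had ranges of mean ± SD that met or overlapped.

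Levels also varied between the cell types. Among the 76 members at 50 CPM or more, the median ratio between the highest and the lowest cluster mean was 2.08, and the ratios ran from 1.46 to 5.82, leaving out Cox5a, which had 0 CPM in its lowest cluster. The tissue-restricted isoforms varied more. Ndufa4l2, a hypoxia-inducible relative of Ndufa4, had 778 ± 207 CPM in mural-like cluster 15 (n = 6), 199 ± 12.96 in mural-like cluster 19 (n = 2) and 204 ± 56.4 in endothelial-like cluster 3, which also carried mural markers. In the tanycyte-like clusters 0, 7 and 10 it stayed at or below 10.2 CPM. Because it helped name the mural-like clusters, its level there is a description of that choice.

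Cox4i2, the hypoxia-linked twin of Cox4i1, had 269 ± 119 CPM in cluster 15, 199 ± 12.96 in cluster 19 and 78.2 ± 22.6 in cluster 3, and at most 7.12 CPM elsewhere. Cluster 19 rested on 2 vehicle mice with 15 cells each. The equal values of Cox4i2 and Ndufa4l2 there come from few UMIs, and their SD says little about spread. Its partner Cox4i1 ranged only from 1501 CPM in cluster 11 to 2221 CPM in cluster 12. Cox6b2, first known from testis, was highest in the tanycyte-like clusters 10 (116 ± 53.2 CPM) and 7 (105 ± 52.5 CPM) and in the leptomeningeal-like cluster 13 (107 ± 48.6 CPM), and had 5.87 ± 5.34 CPM in oligodendrocyte-like cluster 12. The muscle isoforms Cox6a2 (41.0 ± 13.1 CPM in cluster 0) and Cox7a1 (35.9 ± 12.1 CPM in cluster 10) were detected in the tanycyte-like cells. Cox8b, a muscle isoform, and Cox7b2 had at most 1.83 and 2.89 CPM in any cluster, and Cox8c was not analysed here. The plot of isoform levels shows the restricted genes high in a few clusters beside common partners present in all.

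**Figure D1:**
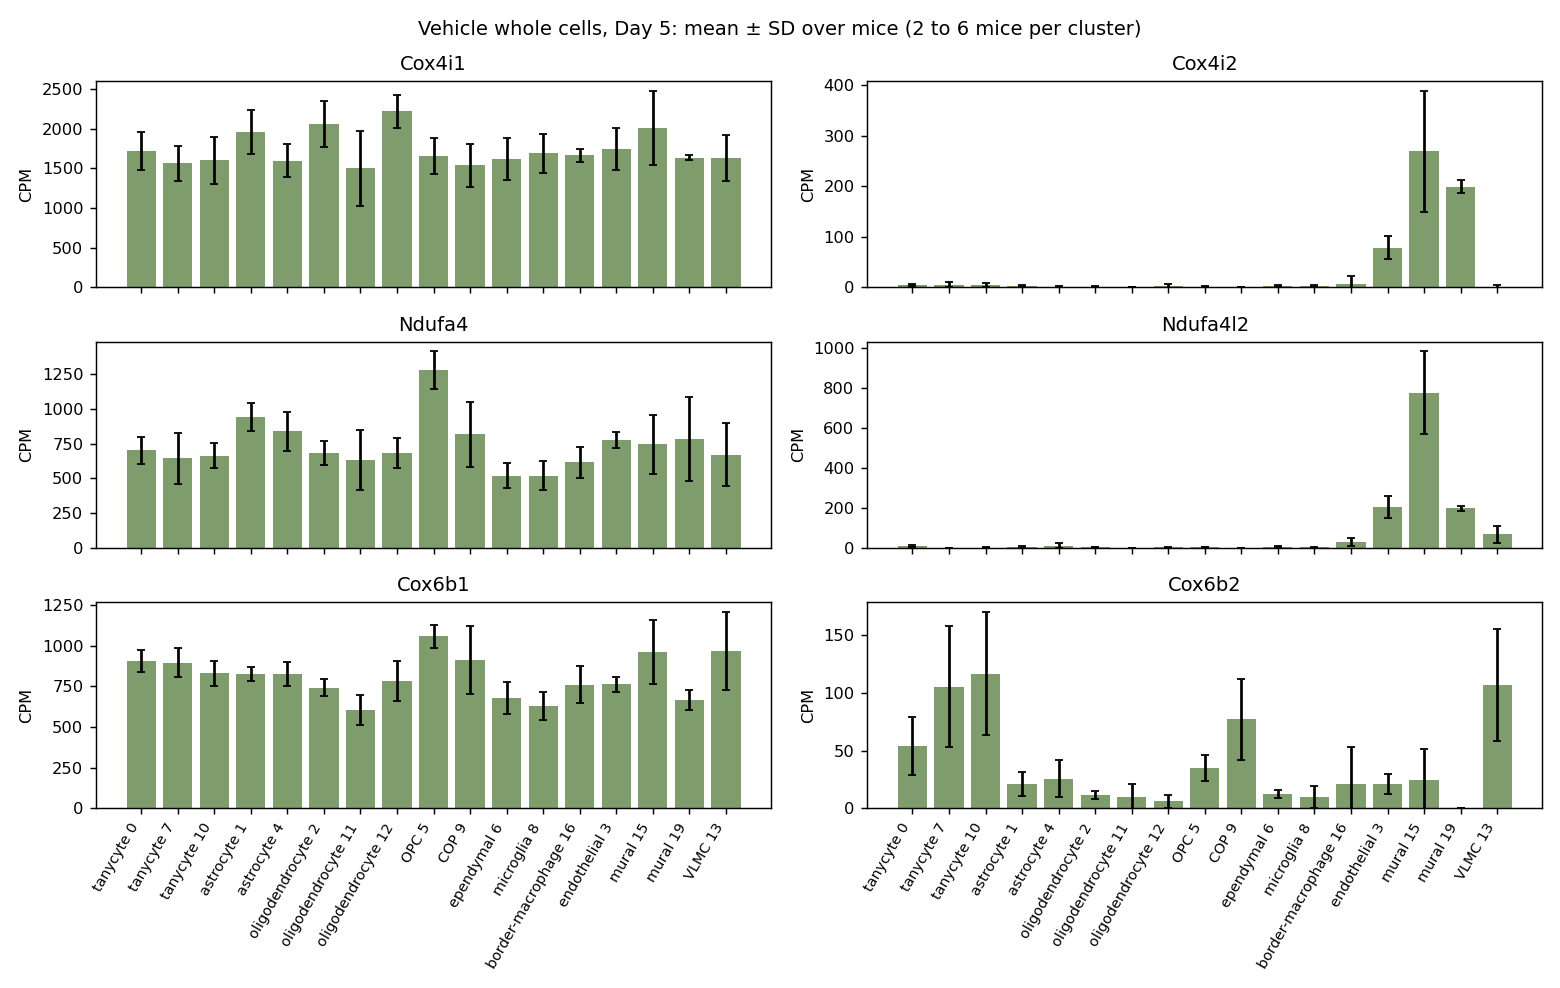
Mean CPM ± SD over vehicle mice for 3 widely expressed genes (left) and their restricted twins (right) by whole-cell cluster, grouped by marker-based name. Cox4i2 and Ndufa4l2 stand out in mural-like clusters 15 and 19 and endothelial-like cluster 3, and Cox6b2 in clusters 7, 10, 9 and 13.

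Day 1 nuclei address which hypothalamic cells responded soon after FGF1. No member was called in any of 18 nuclear types, in 927 tests by edgeR's quasi-likelihood test with Benjamini-Hochberg adjustment over all genes of a type (false discovery rate, FDR, below 0.05). Over the same types 1.05% of all gene tests were called. At an unadjusted p under 0.05 there were 26 member tests, or 2.80%, against 8.12% of all gene tests. DESeq2 also called 0, as did the fit with batch as a block.

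The point estimates nevertheless leaned upward, with a positive median in 16 of 18 types and 734 of 927 positive estimates. The middle of the 18 type medians was 0.35 with all mice and -0.40 without FGF1 mouse 1. In the library of FGF1 mouse 1, members took 1.97% of UMIs, against 0.651% and 0.623% in FGF1 mice 2 and 3. Vehicle mice 1, 2 and 3 had 0.699%, 1.30% and 0.668%, so the groups overlapped fully. Cytosolic ribosomal protein genes moved alongside, at 2.57% in FGF1 mouse 1 and 1.57% in vehicle mouse 2 against 0.905% to 1.02% in the other 4. The mitochondrially encoded share was highest in the same mice, at 0.106% and 0.174% against 0.0173% to 0.0453% in the other 4. The part of these in the members' shares was not tested. These library shares cover all barcodes, among them those the authors marked as filtered, which the fits left out. In the filtered barcodes members took 1.58 ± 0.82% of UMIs (mean ± SD, 5 vehicle mice of both days). Their part in the library shares was not tested.

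In tanycyte nuclei (Tany), members took 2.55%, 1.15% and 0.999% of UMIs in FGF1 mice 1 to 3, and 1.09%, 1.52% and 0.817% in vehicle mice 1 to 3. Of 63 members tested there, 61 had a positive estimate and the median log2 fold change was 0.62. Without FGF1 mouse 1 the median was -0.15 and 27 of 63 were positive. Cox6b1, a complex IV subunit, gave 0.87 (SE 0.47, adjusted p = 0.286, edgeR), and Ndufa4 0.64 (SE 0.52, adjusted p = 0.498, edgeR). In the same nuclei 14 of 69 ribosomal protein genes rose and none fell, where 5.38% of all genes were called higher. The share of UMIs from ribosomal protein genes was 6.61%, 3.59% and 2.96% in FGF1 mice against 1.97%, 2.32% and 1.57% in vehicle mice.

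Astrocyte nuclei (Astro) had a median of -0.00 over 79 members. Cox8a stood at 2478, 93.2 and 60.1 CPM in FGF1 mice 1 to 3 and at 920, 2129 and 261 CPM in vehicle mice 1 to 3. Cox6a1, its neighbour in complex IV, had 1565, 138 and 53.4 CPM against 524, 1440 and 209 CPM. For both genes FGF1 mouse 1 and vehicle mouse 2 were highest, vehicle mouse 1 and then vehicle mouse 3 followed, and FGF1 mice 2 and 3 were lowest. The fold changes of -0.33 (SE 1.21) for Cox8a and -0.30 (SE 1.08) for Cox6a1 were smaller than their standard errors. Without FGF1 mouse 1 the Astro median was -1.20. Among the single-mouse omissions, the count of members called over all types ran from 0 to 12, with 12 lower without FGF1 mouse 1, 4 higher without FGF1 mouse 2 and 5 higher without FGF1 mouse 3.

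**Figure D2:**
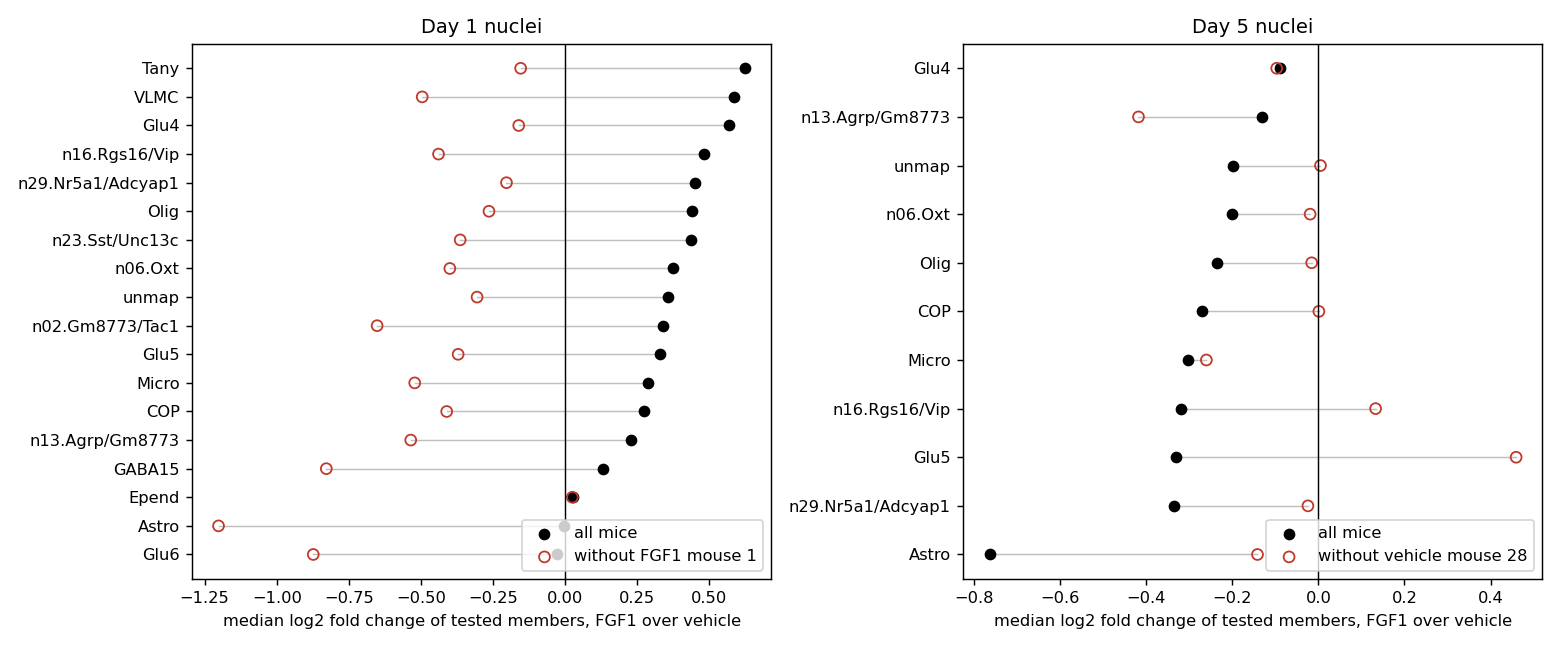
Median log2 fold change of tested members per nuclear type (rows) with all mice (filled) and without 1 mouse (open), Day 1 left and Day 5 right. On Day 1 the Tany median moves from 0.62 to -0.15 without FGF1 mouse 1, and on Day 5 the Astro median moves from -0.76 to -0.14 without vehicle mouse 28.

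On Day 5 the estimates in nuclei leaned the other way. Members were called lower 11 times and higher 0 times in 722 tests over 11 types (edgeR's quasi-likelihood test, Benjamini-Hochberg), while 0.288% of all gene tests were called. The median was negative in all 11 types, from -0.76 in Astro to -0.09 in Glu4. These calls rested on 2 mice per group, and each of the 2 batches held 1 FGF1 and 1 vehicle mouse. With batch as a block 15 members were called, all lower, but 6 of the 11 calls were lost, namely all 4 in Glu5, Cox8a in n16.Rgs16/Vip and Ndufa6 in Astro.

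The 11 calls were 5 genes: Cox6a1 in Astro, COP, Glu5 and Olig, Cox8a in COP, Glu5 and n16.Rgs16/Vip, Ndufb2 in Glu5 and n29.Nr5a1/Adcyap1, Cox5b in Glu5 and Ndufa6 in Astro. Cox6a1 in Astro had 87.7 and 71.8 CPM in FGF1 mice 37 and 45 and 1339 and 198 CPM in vehicle mice 28 and 38. The FGF1 mice were lowest, but most of the distance lay between the vehicle mice. Its log2 fold change was -3.33 (SE 0.65, adjusted p = 0.0290 by edgeR's quasi-likelihood test), and without vehicle mouse 28 it was -1.31. With only the nuclei that had at most 5% mitochondrial and at most 5% ribosomal UMIs, the gene was no longer called in Astro.

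Ndufa6, an accessory subunit of complex I, had 83.6 and 120 CPM in FGF1 and 275 and 604 CPM in vehicle Astro nuclei, a log2 fold change of -2.17 (SE 0.43). Cox8a in the glutamatergic Glu5 neurons had 34.7 and 14.4 CPM in FGF1 mice 37 and 45, 404 CPM in vehicle mouse 28 and 0 in vehicle mouse 38, whose Glu5 sum came from 11 nuclei. Vehicle mouse 28 alone stood above the FGF1 mice. Without it the vehicle arm of Glu5 was mouse 38 alone, at 0 CPM for Cox8a and 20.2 CPM for Cox6a1, so no fold change can be read there. Leaving out vehicle mouse 28 brought the 11 calls to 2, leaving out vehicle mouse 38 raised them to 98 and leaving out FGF1 mouse 37 raised them to 38.

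Over all barcodes of a library, filtered ones included, vehicle mouse 28 also had the highest member share of the Day 5 nuclei at 1.22%. It was 0.854% in vehicle mouse 38 and 0.817% and 0.736% in FGF1 mice 37 and 45. In this paragraph all library shares cover the same barcodes. For vehicle mouse 28 the other shares follow. The ribosomal share of vehicle mouse 28 was 1.41% against 1.29%, 1.07% and 0.865%, and the 75 ribosomal protein genes tested in Astro all had negative estimates. With 2 mice per group, 34.6% (n06.Oxt) to 43.7% (unmap) of all genes tested in a type did not overlap on Day 5. The share from the mitochondrially encoded genes did not overlap between the groups either, at 0.128% and 0.117% in vehicle mice 28 and 38 and 0.0432% and 0.0730% in FGF1 mice 37 and 45. All 12 of these genes tested in Astro and all 6 in Glu5 had negative estimates, with medians of -1.06 and -0.96 and 0 calls. What these shares had to do with the members' calls was not tested.

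The difference of the FGF1 effects between Day 5 and Day 1 was tested in 11 nuclear types with both days. None of 789 member tests was called (edgeR's quasi-likelihood test), 5.20% had an unadjusted p under 0.05 against 4.49% of all gene tests, and 0.00784% of all gene tests were called. DESeq2 called 0 as well. The medians of the difference were negative in every type, from -1.04 to -0.37, and without FGF1 mouse 1 of Day 1 the median over types was 0.09. Day and batch cannot be told apart in these nuclei.

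In whole cells on Day 5 members were called in 7 of 16 clusters, 5 times higher and 6 times lower in 1197 tests. The share of all genes called ran from 0.262% (cluster 8) to 5.27% (cluster 0) in these 7 and was 1.27% in the other clusters pooled. Batch was crossed with treatment, each of 6 batches holding 1 FGF1 and 1 vehicle mouse, so every call could be read within batches.

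Tanycyte-like cells held 4 of the 5 calls for higher expression. Among all genes 2.64% were called higher in cluster 0 and 0.968% in cluster 7, where these calls lay. Ndufc2, a membrane-arm subunit of complex I, had 882, 1020 and 1086 CPM (lowest, median and highest of 6 FGF1 mice) in cluster 0, against 613, 696 and 825 CPM in vehicle mice. Every FGF1 mouse was above every vehicle mouse. The log2 fold change was 0.49 (SE 0.10, adjusted p = 0.00251 by edgeR's quasi-likelihood test), with FGF1 higher in 6 of 6 batches.

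In cluster 7, with 5 FGF1 mice passing the cell minimum, Ndufc2 had 1510, 1567 and 1846 CPM against 900, 1053 and 1418 CPM in 6 vehicle mice, again without overlap, for a log2 fold change of 0.59 (SE 0.12, adjusted p = 0.00692, edgeR). Cluster 7 was also where Ndufc2 had its highest vehicle level of all clusters. In cluster 10 the estimate was 0.34 (SE 0.18, adjusted p = 0.418, edgeR). Ndufc2 lies on chromosome 7 at 97400003-97407802 on the plus strand of GRCm38. Its annotated neighbours Thrsp, 5135 bp away on the other strand, and Kctd14, a further 33592 bp on, were looked at after Ndufc2 was seen to rise. In cluster 0 Thrsp had a log2 fold change of 0.65 and Kctd14 of 0.90, and in cluster 7 0.68 and 0.67, all called by edgeR. Thrsp was also called higher where Ndufc2 was not, at 0.67 in cluster 10 (adjusted p = 0.0172, edgeR) and 1.11 in oligodendrocyte-like cluster 2 (adjusted p = 0.0309, edgeR), while Ndufc2 had 0.18 in cluster 2 (adjusted p = 0.628, edgeR). Gm16053 overlaps Ndufc2 on the same strand.

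Cox7a2l encodes a factor linked to the joining of complexes III and IV into supercomplexes, a function that was not measured in these mice. The gene lies at chr17:83501918-83517330 on the minus strand. It had 444, 476 and 607 CPM (lowest, median, highest) in FGF1 cells of cluster 0 and 246, 338 and 391.6 CPM in vehicle cells, with no overlap. The log2 fold change was 0.58 (SE 0.11, adjusted p = 0.00256, edgeR), higher in 6 of 6 batches and called under all 19 alternatives. Its estimates were 0.52 in cluster 10 (adjusted p = 0.106), 0.55 in ependymal-like cluster 6 (adjusted p = 0.0556) and 0.44 in endothelial-like cluster 3 (adjusted p = 0.0935) by edgeR, none of them called, and -0.14 in astrocyte-like cluster 4.

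Sdhaf4, an assembly factor for the flavoprotein of complex II, had 119, 136 and 175 CPM against 92.2, 104 and 122 CPM in cluster 0, overlapping slightly, for 0.45 (SE 0.12, adjusted p = 0.0229, edgeR). These 3 of 89 members stood against 5.27% of all genes called in cluster 0, and in cluster 7 1 of 83 stood against 1.94%. The median over all members tested was -0.03 in cluster 0 and -0.05 in cluster 7.

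Ndufa5, an accessory subunit of complex I encoded at chr6:24518666-24528013 (minus strand), was lower in 3 clusters. In oligodendrocyte-like cluster 2 it had 288, 321 and 345 CPM in FGF1 mice against 363, 478 and 597 CPM (log2 fold change -0.56, SE 0.12, adjusted p = 0.0211, edgeR). In endothelial-like cluster 3 it had 250, 287 and 356 CPM against 366, 424 and 513 CPM (-0.54, SE 0.12, adjusted p = 0.0236, edgeR), and in microglia-like cluster 8 155, 203 and 242 CPM against 289, 353 and 506 CPM (-0.93, SE 0.19, adjusted p = 0.0310, edgeR). No FGF1 mouse reached a vehicle mouse in any of the 3, and FGF1 was lower in 6 of 6 batches each time. In cluster 8 the call was lost under 12 of 19 alternatives. Astrocyte markers in cluster 3 summed to 734, 964 and 1456 CPM in FGF1 and 1084, 1829 and 1903 CPM in vehicle mice, tanycyte markers to 107, 196 and 338 CPM against 68.9, 100.5 and 162 CPM, and ependymal markers to 204, 260.0 and 341 CPM against 149.9, 189 and 225 CPM. In cluster 8 astrocyte markers summed to 805, 1243 and 1876 CPM against 1293, 2056 and 2534 CPM. There markers of oligodendrocyte precursors summed to 54.6, 98.4 and 178 CPM against 47.5, 233 and 245 CPM, and those of committed precursors to 74.9, 153 and 230 CPM against 47.5, 72.4 and 107 CPM. All these sums overlapped between the groups. The mitochondrially encoded genes had negative estimates for 13 of 13 in clusters 2 and 8 and 11 of 13 in cluster 3, with 0 calls, and the part of these values in the Ndufa5 calls was not tested.

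Cox6c, a small subunit of cytochrome c oxidase, was lower in astrocyte-like cluster 1, at 847, 1152 and 1282 CPM against 1440, 1533 and 1976 CPM (-0.56, SE 0.13, adjusted p = 0.0260, edgeR). Cluster 2 showed 931, 1216 and 1441 CPM against 1430, 1722 and 2082 CPM (-0.53, SE 0.12, adjusted p = 0.0253, edgeR), where the highest FGF1 mouse reached the lowest vehicle mouse. The gene, at chr15:35925886-35938246 on the minus strand, overlaps Vps13b, which lies on the opposite strand. Cox6a1 was lower in OPC-like cluster 5, at 539, 799 and 863 CPM against 927, 1009 and 1233 CPM (-0.43, SE 0.11, adjusted p = 0.0241, edgeR).

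Cox6b2, at chr7:4751792-4753094 on the minus strand, moved the other way in complex IV. In cluster 2 it had 17.02, 29.0 and 70.2 CPM in FGF1 mice against 7.46, 11.5 and 17.5 CPM (1.28, SE 0.28, adjusted p = 0.0203, edgeR), higher in 5 of 6 batches. The counts were small, 79 UMIs in FGF1 and 100 in vehicle cells. In oligodendrocyte-like cells the 8 tanycyte markers summed to 87.0, 172 and 190 CPM in FGF1 mice and 43.6, 76.5 and 120 CPM in vehicle mice. They include Vcan, also a marker of committed precursors, and their vehicle medians were 624.5 CPM in OPC-like and 315.5 CPM in COP-like cells. The part of these markers in the Cox6b2 result was not tested.

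In cluster 1, 1 of 86 members tested was called, where 0.404% of all genes were. The same counts were 3 of 85 members against 0.904% of all genes in cluster 2, 1 of 83 against 0.948% in cluster 3, 1 of 83 against 2.39% in cluster 5 and 1 of 71 against 0.262% in cluster 8. Leaving out vehicle mouse 25 reduced the 11 calls over all clusters to 3, FGF1 mouse 7 to 4, FGF1 mouse 10 to 5 and FGF1 mouse 21 to 7, while leaving out FGF1 mouse 28 or vehicle mouse 35 raised them to 19 or 24. In the 9 clusters without a called member 1.27% of all gene tests were called. At the unadjusted level, 14.6% of member tests had p under 0.05 against 13.4% of all gene tests.

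**Figure D3:**
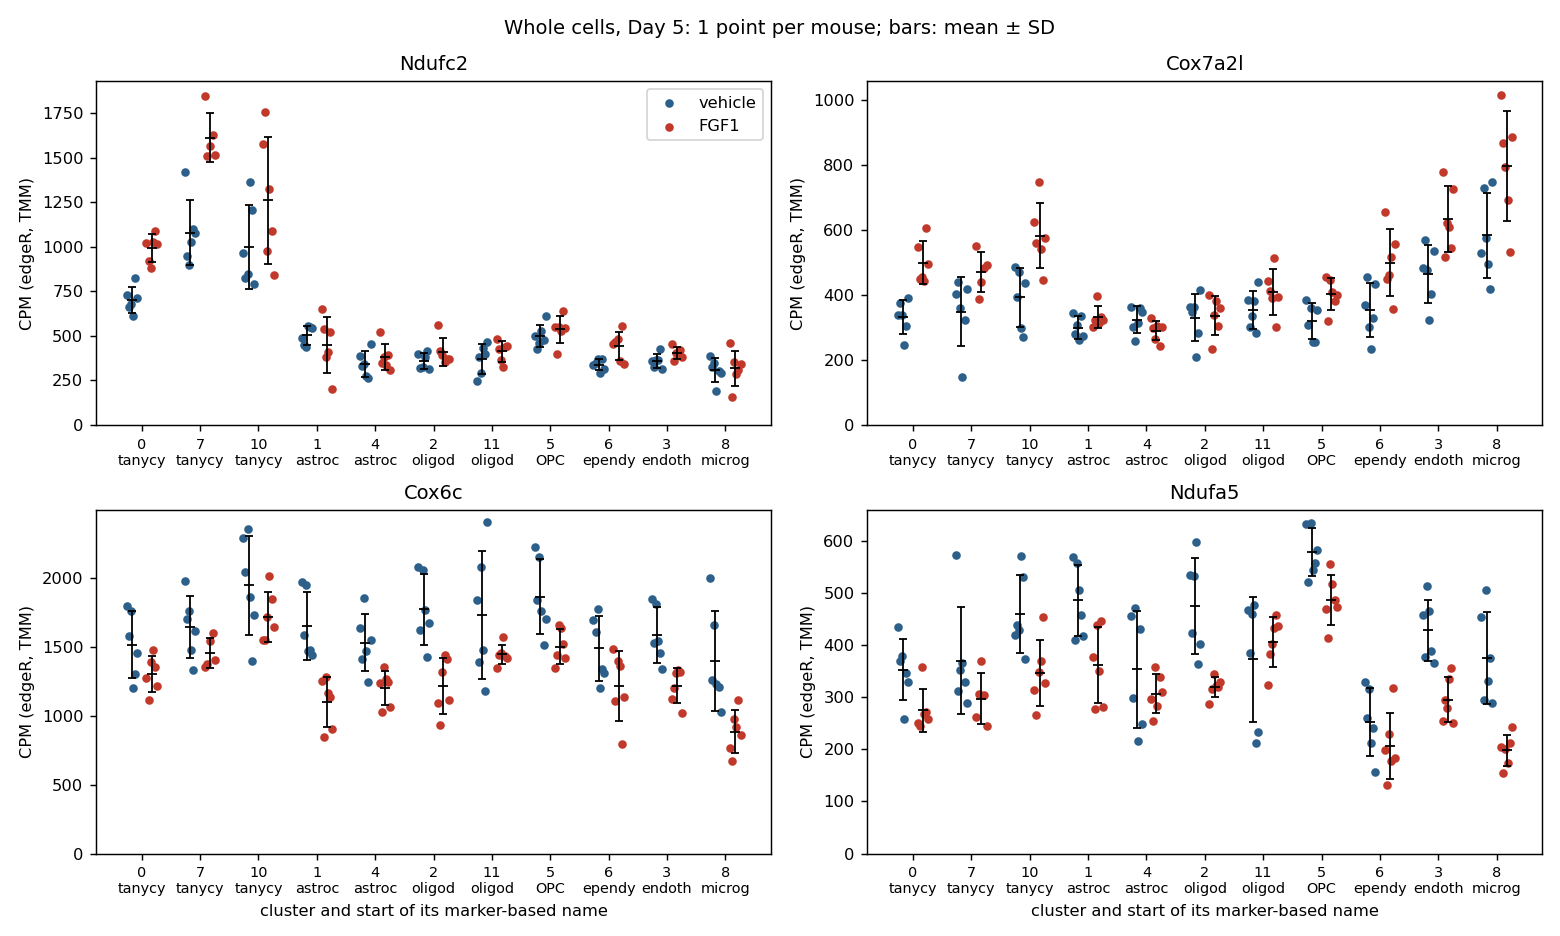
CPM of Ndufc2, Cox7a2l, Cox6c and Ndufa5 by whole-cell cluster on Day 5, 1 point per mouse, with mean ± SD bars. The FGF1 points of Ndufc2 lie above all vehicle points in clusters 0 and 7, and those of Ndufa5 lie below all vehicle points in clusters 2, 3 and 8.

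Single clusters split cell types unevenly between the treatments, so the clusters of 1 name were also merged per mouse. Among astrocyte-like cells, cluster 1 held 81.6, 93.4 and 96.3% (lowest, median, highest) of a vehicle mouse's cells but 6.93, 20.6 and 52.2% of an FGF1 mouse's, and cluster 4 held the rest. Merged astrocyte-like cells held more member calls than any other merged type. Of 90 members tested, 43 were lower and 0 higher, where 12.6% of all genes were called and 6.06% were called lower. The median log2 fold change of members was -0.37, against -0.02 over all genes tested, and 84 of 90 estimates were negative.

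By complex as set by symbol, 22 of 37 tested complex I subunits, 3 of 6 complex I assembly factors, 1 of 4 complex II subunits, 0 of 4 complex II assembly factors, 2 of 8 complex III genes, 7 of 14 complex IV genes and 8 of 17 complex V (Atp5) genes were lower. Median log2 fold changes ran from -0.52 in complex IV and -0.41 in complex I to -0.33 in complex V, -0.26 in complex III and -0.06 in complex II. The rest of each group did not pass the test.

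In complex I, Ndufa5 had 235, 298 and 350 CPM in FGF1 astrocyte-like cells against 378, 456 and 551 CPM in vehicle cells, with no overlap (-0.63, SE 0.12, adjusted p = 0.000483, edgeR). Ndufv3, of the NADH-binding flavoprotein part, had 179, 212 and 240 CPM against 261, 322 and 371 CPM (-0.60, SE 0.11). The accessory membrane subunits Ndufb4 (-0.54), Ndufb8 (-0.58) and Ndufb9 (-0.63) were each lower in 6 of 6 batches. Ndufb9 had 348, 471 and 584 CPM against 591, 751 and 835 CPM, so its closest mice almost met. Core subunits of the electron path were among the calls too, with Ndufv2 at -0.48 (SE 0.12), as were the accessory subunits Ndufa8 (-0.55) and Ndufa12 (-0.57).

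In complex IV, its most abundant member Cox4i1 had 1142, 1400 and 1900 CPM against 1563, 2013 and 2362 CPM (-0.49, SE 0.12, adjusted p = 0.00614, edgeR), the ranges overlapping. Cox6c had 922, 1140 and 1242 CPM against 1420, 1477 and 1920 CPM, with no overlap (-0.55, SE 0.11, adjusted p = 0.00105, edgeR). Cox6a1 (-0.56), Cox7a2 (-0.54), Cox7b (-0.56) and Cox7c (-0.51) fell by similar amounts, and none of these 4 had overlapping groups. Cox6b1 fell by 0.32 on the log2 scale, and the restricted Cox6b2 (0.22), Cox6a2 (-0.43) and Cox7a1 (-0.23) were not called.

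For ATP synthase, Atp5b, the catalytic beta subunit, had 316, 338 and 430 CPM against 391, 489 and 612 CPM (-0.50, SE 0.12, adjusted p = 0.00585, edgeR). Atp5c1, the gamma subunit of the central stalk, had -0.57 (SE 0.14), Atp5g1, which encodes the c-ring, -0.49 (SE 0.11), and Atp5l -0.43 (SE 0.11). In the groups with few calls, Uqcrc1, a core protein of complex III, had -0.46 (SE 0.11), and Sdhb of complex II had -0.50 (SE 0.13, adjusted p = 0.0106, edgeR).

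The groups of mice did not overlap for 17 of the 90 members tested, where 5.16% of all tested genes did not overlap. All 43 called members were lower in at least 5 of 6 batches, and 38 were lower in all 6. Under 19 alternatives each, 25 of the 43 remained called throughout, and the count over single-mouse omissions ran from 26 (without FGF1 mouse 7) to 44 (without FGF1 mouse 10). Leaving out FGF1 mouse 21 gave 29.

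As a share of all UMIs of astrocyte-like cells, members took 2.41, 2.88 and 2.99% in FGF1 mice and 3.23, 3.43 and 3.81% in vehicle mice, with no overlap and a lower FGF1 share in each of 6 batches, the FGF1 minus vehicle difference running from -1.26 to -0.253 percentage points. The share from the 13 mitochondrially encoded genes overlapped fully, at 13.1, 14.3 and 16.3% against 11.5, 14.5 and 16.7%, and 1 of them, mt-Nd6, was called lower. Within the single clusters most estimates were also negative: in cluster 1 the median was -0.23 with 76 of 86 estimates negative and 1 call, and in cluster 4 it was -0.13 with 63 of 82 negative and 0 calls. In cluster 4, 13 of 82 members had an unadjusted p under 0.05, as did 9.17% of all genes, and DESeq2 called 0 members there. The members' share of UMIs had medians of 3.48% and 3.02% in vehicle and FGF1 cells of cluster 1, and 3.16% and 2.79% in cluster 4. The part of the cluster mix in the merged calls was not tested.

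Genes around the chain gave a mixed picture in astrocyte-like cells. Of 35 other chain components and assembly factors 7 were lower (Atpif1, Cox16, Cycs, Higd1a, Sco2, Surf1 and Usmg5), of 76 mitochondrial ribosome genes 6, and of 80 cytosolic ribosomal protein genes 13, with 0 higher in each list. Of 17 pyruvate dehydrogenase and citric acid cycle genes 1 was higher, Suclg2, and 0 lower, and 0 of 8 tested regulators were called. Neuron markers in these cells summed to 190, 251 and 368 CPM in FGF1 mice and 343, 452 and 664 CPM in vehicle mice, tanycyte markers to 89.5, 162 and 227 CPM against 58.2, 70.4 and 84.7 CPM, markers of committed oligodendrocyte precursors to 165, 199 and 239.5 CPM against 100.3, 108 and 134 CPM, and astrocyte markers to 8141, 9711 and 10430 CPM against 8253, 9349 and 9641 CPM. Vcan is in both the tanycyte and the committed precursor sums. Mean UMIs per cell were 1147, 1180 and 1662 against 1031, 1157 and 1466, and the part of the markers and of these in the members' result was not tested.

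**Figure D4:**
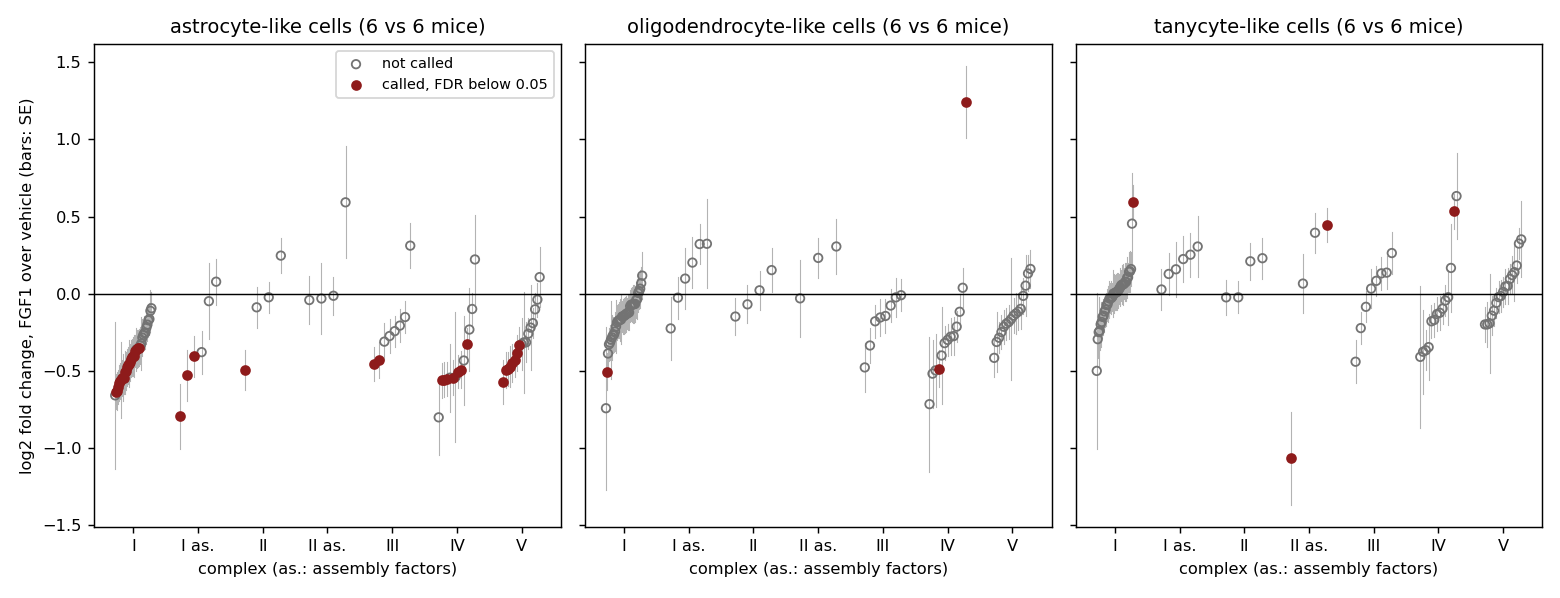
Log2 fold change (FGF1 over vehicle, bars SE) of each tested member by complex in merged astrocyte-like, oligodendrocyte-like and tanycyte-like cells on Day 5, called members filled. In astrocyte-like cells 43 filled points lie below 0, while in tanycyte-like cells the points straddle 0 with 3 called above and 1 below.

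Clusters 0, 7 and 10 merged gave 3 higher and 1 lower call among 91 members, where 5.08% of all genes were called, and the median was 0.01. Ndufc2 had 984, 1038 and 1477 CPM against 674, 725 and 852 CPM (0.60, SE 0.11, adjusted p = 0.00262, edgeR). Cox7a2l (0.53, SE 0.11) and Sdhaf4 (0.45, SE 0.11) were also higher without overlap. Sdhaf1, a factor for the iron-sulfur subunit of complex II, had 3.00, 5.15 and 7.83 CPM against 6.38, 9.13 and 19.4 CPM (-1.07, SE 0.30, adjusted p = 0.0380, edgeR), from 78 and 82 UMIs, and lost its call under 9 of 19 alternatives. In the same cells 21 of 80 cytosolic ribosomal protein genes were higher and 0 lower, and Hif1a was lower. Tanycyte markers summed to 1821, 1995 and 2362 CPM in FGF1 and 1418, 1601 and 1857 CPM in vehicle cells, and astrocyte markers to 1663, 1906 and 1946 CPM against 2006, 2576 and 3212 CPM. Cluster 7, where Ndufc2 had its highest vehicle level, held 2.41, 22.7 and 54.9% of an FGF1 mouse's tanycyte-like cells and 4.74, 10.7 and 29.4% of a vehicle mouse's, and the merged Ndufc2 estimate of 0.60 stood beside 0.49 within cluster 0. The part of the markers and of this cluster mix was not tested.

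Oligodendrocyte-like cells, merged, had 1 higher and 2 lower of 87 members, against 2.25% of all genes. Cox6b2 had 19.2, 26.8 and 44.8 CPM against 5.87, 10.4 and 16.5 CPM, with no overlap (1.24, SE 0.23, adjusted p = 0.00593, edgeR), higher in 6 of 6 batches and called under all 19 alternatives. Cox6c (-0.49, SE 0.12) and Ndufa5 (-0.51, SE 0.12) were lower, as was the regulator Ppargc1a, a coactivator of mitochondrial genes. Cox6c and Ndufa5 each lost the call under 5 of 19 alternatives, and Ndufa5 was lower in 5 of 6 batches. No member was called lower without FGF1 mouse 10, FGF1 mouse 21, vehicle mouse 20 or vehicle mouse 25, and DESeq2 called 7 lower. The 6 oligodendrocyte markers summed to 39870, 51530 and 61480 CPM in FGF1 cells and 28360, 34920 and 36760 CPM in vehicle cells, and astrocyte markers to 740.1, 1056 and 1432 CPM against 1099, 1778 and 2413 CPM. COP markers (committed oligodendrocyte precursors) were higher in every FGF1 mouse than in any vehicle mouse, at 137, 159 and 194 CPM against 89.8, 112 and 131 CPM. Cluster 11 held 11.3, 35.6 and 81.3% (lowest, median, highest) of an FGF1 mouse's oligodendrocyte-like cells and 0.964, 2.46 and 7.62% of a vehicle mouse's, while cluster 2 held 15.5, 56.2 and 75.3% against 78.0, 82.9 and 91.4%. The part of the markers and of this cluster mix in these results was not tested. In OPC-like cells Cox6a1 alone was called of 83 members (-0.44, SE 0.11), against 3.24% of all genes, and the call was lost without FGF1 mouse 10 or vehicle mouse 25. Neuron markers in these cells summed to 826, 903 and 1059 CPM in FGF1 and 1105, 1191 and 1220 CPM in vehicle mice, with no overlap. Cluster 17 held 3.07, 6.88 and 15.6% of an FGF1 mouse's OPC-like cells and 0.0, 0.42 and 1.28% of a vehicle mouse's, again without overlap. The part of the markers and of this cluster mix in the Cox6a1 call was not tested. In mural-like cells 0 of 51 were called by edgeR or by DESeq2.

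Whether the FGF1 effect differed between tanycyte-like and astrocyte-like cells was tested for the 7 members called in at least 1 cluster, by a two-sided exact permutation test over 6 and 6 mice, a test added after the values were seen. Ndufc2 and Cox7a2l entered by calls in tanycyte-like and Cox6c by calls in astrocyte-like and oligodendrocyte-like clusters of the same mice. The test therefore partly restates those calls. Ndufc2 was itself called lower in astrocyte-like cells (-0.36, SE 0.12, adjusted p = 0.0473, edgeR), a call lost under 11 of 19 alternatives. For Ndufc2 the effect was 0.83 higher on the log2 scale in tanycyte-like cells (exact permutation p = 0.00216, adjusted p = 0.00756 over 7 tests). For Cox7a2l it was 0.51 higher (exact permutation p = 0.00216, adjusted 0.00756), and for Cox6c 0.24 higher (exact permutation p = 0.00433, adjusted 0.0101). Differences for Sdhaf4 (0.32, adjusted exact p = 0.0605), Ndufa5 (0.21, adjusted exact p = 0.0818), Cox6b2 (-0.23, adjusted exact p = 0.353) and Cox6a1 (0.05, adjusted exact p = 0.353) did not pass. The smallest p this design allows is 0.00216. That test exchanges mice across batches. With the treatment exchanged only within the 6 batches, Ndufc2, Cox7a2l and Cox6c each had a positive difference in 6 of 6 batches and an exact permutation p = 0.0312, the smallest that 6 batches allow, and none passed after adjustment over the 7 tests (adjusted exact p = 0.0729 for each).

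Member shares in the other whole-cell types followed as a description. In endothelial-like cells they were 2.65, 2.85 and 3.06% in FGF1 and 3.12, 3.21 and 3.52% in vehicle mice, with no overlap and lower in 6 of 6 batches. The astrocyte, tanycyte and ependymal marker sums given for cluster 3, the endothelial-like cells, shifted beside it, and their part was not tested. Oligodendrocyte-like cells had 2.70, 2.89 and 3.07% against 3.00, 3.22 and 3.71%, lower in 6 of 6 batches. Within cluster 2 the FGF1 and vehicle medians were 2.91% and 3.22%, and within cluster 11, which held a larger share of the FGF1 than of the vehicle cells, 2.76% and 2.73%. The part of the cluster mix in the merged share was not tested. Microglia-like cells had 1.75, 2.02 and 2.43% against 2.25, 2.49 and 2.97%, and tanycyte-like cells 2.89, 3.28 and 3.40% against 3.08, 3.52 and 3.73%, both overlapping. Ependymal-like cells, with medians of 2.94% and 2.95%, and COP-like cells, with 3.31% and 3.20%, did not separate.

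**Figure D5:**
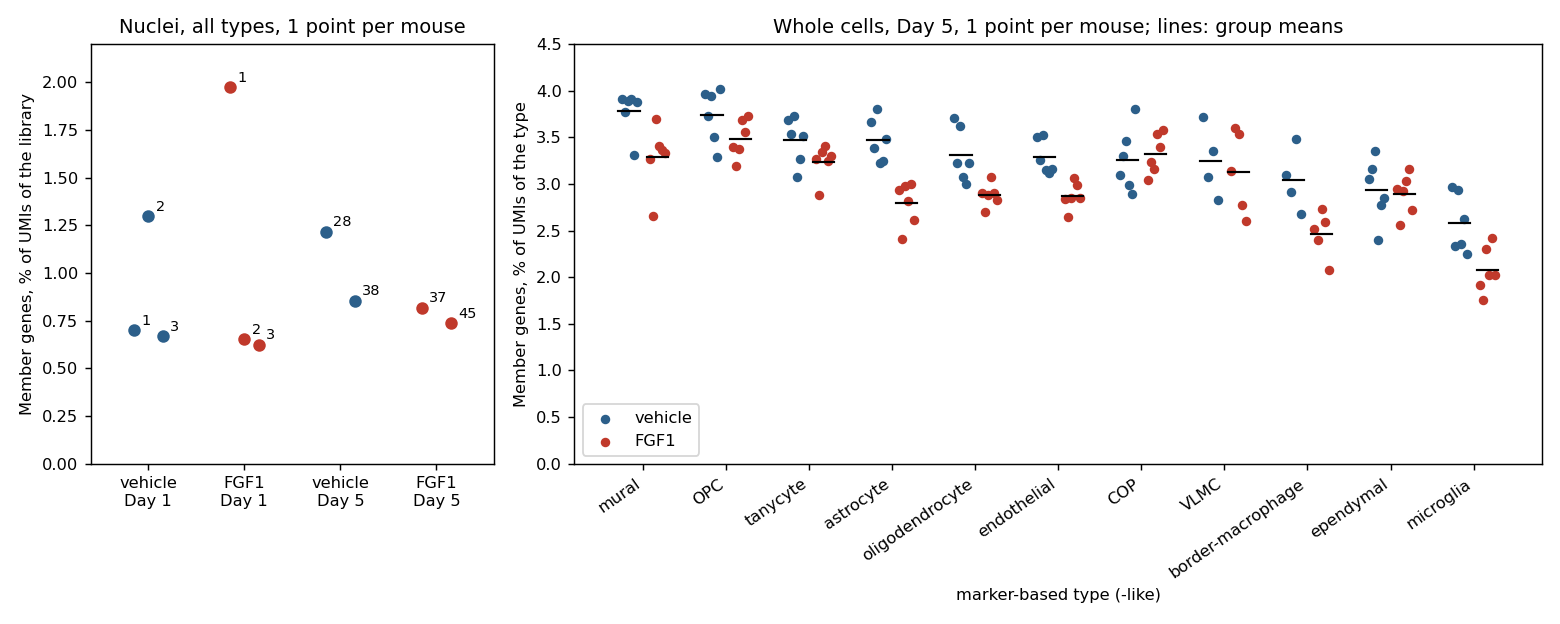
Share of UMIs from member genes (%), left by nuclei library with mouse numbers, right by marker-based type of Day 5 whole cells with 1 point per mouse and group means as lines. The nuclei libraries include the barcodes that the authors marked as filtered. Among nuclei FGF1 mouse 1 of Day 1 stands at 1.97%, and among whole cells the astrocyte-like and endothelial-like points of the treatments do not overlap.

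Among promoters, the NRF1 core was in 8 of 39 members called lower in astrocyte-like cells (20.5%) and in 3 of 36 tested there and not called (8.33%). The ETS site was in 20.5% and 33.3% and the YY1 site in 12.8% and 11.1% of these. These shares carry no test and say nothing of binding.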

How the data were processed

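Nuclei (10 libraries) and whole cells (12 libraries) were profiled with 10x 3-prime v2 chemistry, 1 mouse per library. The authors counted UMIs with Cell Ranger 1.2 against GRCm38, with introns for nuclei, and deposited raw UMI counts per barcode with a metadata table holding sample, batch, cell type or cluster and percent of mitochondrial or ribosomal UMIs. The deposited percent columns served only for the stated limit of 20% in whole cells, and the limit of 5% for nuclei was computed from the counts. The alternative with these limits keeps 24089 nuclei and 50508 whole-cell barcodes. Doublets were handled by the authors (Scrublet in whole cells, none in nuclei), and neurons were left out of their whole-cell table. The authors' normalised values were not used.

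Counts were summed per mouse and type with at least 10 cells per mouse and 2 mice per group. Nuclei barcodes that the authors marked as filtered were left out of the fits but not of the library shares. They were tested with edgeR 4.0.16 (filterByExpr, TMM, robust quasi-likelihood F test, R 4.3.3), Benjamini-Hochberg over all genes of a fit, FDR below 0.05. The SE is the log2 fold change over the square root of F. CPM in the fits uses TMM-scaled library sizes. Vehicle levels across clusters and the permutation tests use plain UMI totals, so CPM values of the 2 kinds are not on 1 scale. Alternatives were DESeq2 1.42.0, RLE scaling, scaling without members, mitochondrial and ribosomal genes, no filter, the stated limits, 30 cells, batch and replicate blocks, FDR below 0.1, merged clusters and leaving out each mouse. The refits of merged clusters and the permutation tests between types, free and within batches (scipy 1.17.1, log2 CPM with pseudocount 0.5) were chosen after seeing the data. Cluster names required markers at 20 CPM and 2-fold over the rest. The fits were tested on simulated data.

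Named were called members (at most 25 per comparison and type, by FDR), restricted isoforms and their partners, the 2 highest members per complex in vehicle whole cells, and members called alike in 2 or more types. Members and lists were chosen with earlier results of these data known. Gene IDs were matched by symbol to GRCm38, and strand use in counting was not given in the sources used here.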

Additional observations from a re-analysis of the deposited data

Results flagged for a closer look

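In groups of 4 to 10 mice, the highest or lowest mouse was set against the group's range by Dixon's criterion, which chance meets in about 1 in 20 groups, and 3 of 30 groups met it. The member share of UMIs in tanycyte-like cells of 1 FGF1 mouse was 2.89%, below the other 5. Cox6b2 in cluster 2 reached 70.2 CPM in 1 FGF1 mouse, and Cox6a1 in cluster 5 had 539 CPM in 1 FGF1 mouse, the lowest of its group.

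With mice exchanged across batches, 3 of 7 members passed the two-sided exact permutation test for a different FGF1 effect in tanycyte-like and astrocyte-like cells. The difference on the log2 scale was 0.83 for Ndufc2, 0.51 for Cox7a2l (0.505 before rounding) and 0.24 for Cox6c. With the treatment exchanged only within batches, the exact permutation p was 0.0312 for each of the 3, the smallest that 6 batches allow, and the adjusted p of 0.0729 over 7 tests did not pass. These members were chosen by calls in single clusters of the same mice, so the test partly restates those calls.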

How the results depend on the processing

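Day 1 nuclei had 0 called members. No low-count filter gave 9 (all higher), scaling without members, mitochondrial and ribosomal genes 1 (higher), and FDR below 0.1 gave 2 (higher). The replicate number as a block gave 1 (lower), but the numbers did not follow the deposited batches. Those held FGF1 mouse 1 with vehicle mouse 3, FGF1 mouse 2 with vehicle mouse 1, and FGF1 mouse 3 with vehicle mouse 2. Same-numbered mice had correlations of deviations of -0.186, -0.158 and 0.397. Mice of the same batch had -0.412, -0.0156 and -0.533, so such correlations cannot show pairing. Day 5 nuclei had 11, against 3 with DESeq2 and 30 with no filter. At least 30 nuclei per mouse gave 4, because COP, Glu5 and n16.Rgs16/Vip had a mouse with fewer and were not refitted. The calls in Astro, Olig and n29.Nr5a1/Adcyap1 all stayed there. Whole cells had 11, against 27 with no filter (18 higher, 9 lower), 25 at FDR below 0.1 (10 higher, 15 lower) and 53 with clusters of 1 name merged (4 higher, 49 lower, of which Ndufa5 in clusters 3 and 8, which had no partner to merge, made 2). The difference between days had 0, against 9 (lower) with no filter. Apart from the types that were not refitted, the cause of these changes was not tested.

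Leaving out 1 mouse at a time gave 0 to 12 called members in Day 1 nuclei, 2 to 98 in Day 5 nuclei, 3 to 24 in whole cells and 0 to 4 for the difference between days, the 4 without FGF1 mouse 2 of Day 1. The middle of the type medians ran from -0.40 to 0.68, from -0.33 to -0.019, from -0.12 to -0.08 and from -0.97 to 0.09 in these comparisons. Over the single-mouse omissions the Glu5 estimate of Cox6a1 ran from -3.06 (without vehicle mouse 38) to 0.35 (without vehicle mouse 28), and that of Cox8a from -4.28 to 6.32 for the same mice. The positive ends set the FGF1 mice against 11 nuclei of vehicle mouse 38 with 0 Cox8a UMIs, so their sizes depend on the prior count and carry no bound. Where omission left 1 mouse in a group, that mouse was assumed to vary like the others. Of 207 refits of the 11 whole-cell calls, 164 stayed called, 43 did not and 0 reversed, and of 969 refits of the 51 calls in merged clusters, 810 stayed, 159 did not and 0 reversed. Of 111 refits of the 11 nuclei calls 2 reversed, those of Cox6a1 and Cox8a in Glu5 without vehicle mouse 28. Those 111 include refits with 1 mouse in a group, so no count of calls kept is given. Batch as a block took 6 of the 11 Day 5 nuclei calls while the count rose to 15. The library with the fewest barcodes, 591, was vehicle mouse 38 of the Day 5 nuclei.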
